A study of Mus musculus with 2 samples.

Results

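The cells described here are 1631 reticular cells of mouse mandibular lymph nodes that carry messenger RNA of the chemokine Ccl19, 968 from a library made after subarachnoid haemorrhage (SAH, a bleed beneath the membranes that cover the brain) and 663 from a library made after a sham operation. They were chosen by measured values. Barcodes were kept where 500 or more genes were detected and 10% or less of the unique molecular identifiers (UMIs) came from mitochondrial genes, which left 22611. Among these a cell entered the group with at least 3 Ccl19 UMIs, no UMI of Pecam1, Prox1, Pi16 or Myh11, and at least 1 UMI summed over Dcn, Col3a1, Col1a1 and Pdgfrb. The files hold 27718 barcodes in all. In the SAH group the bleeding was induced with the animal's own blood, and the sham group had an operation without it. Nodes were taken 24 h later from 20 mice a group, and each pool gave 1 library. Per the labels, CD45-bearing cells were depleted and cells were enriched with antibodies against CD31 and podoplanin. The labels name the product lymphatic endothelial cells, and give no strain, age or sex. The reticular cells are thus a stromal fraction carried through an endothelial enrichment, and their share in the libraries need not be their share in the node.

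Fibroblastic reticular cells form the scaffold of the lymph node. They wrap the collagen conduits that carry lymph fluid, and in the T zone they release CCL19 and CCL21, the ligands of the receptor CCR7 that guide naive T cells and dendritic cells. They also provide survival factors such as interleukin 7 and BAFF, and depend on lymphotoxin signalling from lymphocytes. Reticular cells of the B-cell follicle and its margin make CXCL13 instead, the ligand of CXCR5.

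With 1 library a group there is no replicate spread, so no test was made between SAH and sham, and every difference below is a difference between these libraries. Levels are CPM, the UMIs of a gene summed over the cells of a library and scaled to 1000000 UMIs of the same cells. A fold is SAH CPM over sham CPM, followed in brackets by an exact conditional binomial 95% interval. A share of cells is given with its exact Clopper-Pearson 95% interval. Either interval covers counting error only. The SAH reticular cells held 6933676 UMIs (median 6856 UMIs and 2301 genes per cell, 4.10% mitochondrial) and the sham cells 3922898 UMIs (median 5415 UMIs and 1997 genes, 4.65% mitochondrial). The libraries shared 76 barcodes, of which 0 lay among the reticular cells. A doublet caller marked 6 of the SAH and 4 of the sham reticular cells.

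The reticular cells made up 8.45% [7.95, 8.98] of the cells kept in the SAH library and 5.94% [5.51, 6.40] of those kept in the sham library, a ratio of 1.42 [1.29, 1.57]. Because the choice rests on raw UMIs and the SAH cells were deeper, the share was also taken after thinning. Kept cells were thinned at random to 2000 UMIs, and shallower cells were left out. This gave 8.69% in the SAH and 5.61% in the sham library. Every condition was applied to the thinned counts, so cells with few Pecam1 or Myh11 UMIs could enter and chosen cells could drop out. The thinned share is thus not that of the same cells. Stricter limits on Ccl19 gave larger ratios. With at least 10 Ccl19 UMIs the shares were 4.51% in the SAH and 2.43% in the sham library. The stricter limits were taken on raw UMIs without thinning, so the deeper SAH cells could reach them more easily. Among cells that met every other condition, 81 had 2 Ccl19 UMIs and 73 had 3 in the SAH library, against 103 with 2 and 92 with 3 in the sham library, so no gap separated the cells just inside the limit from those just outside. The chosen cells carried a median of 10 Ccl19 UMIs in the SAH library (range 3 to 198) and 8 in the sham library (range 3 to 282). They held 37.4% of the SAH library's Ccl19 UMIs and 39.9% of the sham library's. Blood endothelial cells, which should lack the gene, had at least 1 Ccl19 UMI in 19.1% of 5386 SAH cells and 8.28% of 5350 sham cells, and at least 3 in 4.44% of SAH and 2.34% of sham cells, at median depths of 5205 and 5146 UMIs. These shares were also higher in the SAH library, and the part of free RNA in the larger share of reticular cells was not tested.

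The 5 genes that mark the cells were checked first, with each cell thinned to 2000 UMIs and with the share in blood endothelial cells of the same library beside it. After thinning, 953 SAH and 659 sham reticular cells remained, and 15 SAH and 4 sham cells were too shallow. Ccl19 itself was chosen, and its 2656 CPM in the SAH and 2650.1 CPM in the sham library are a description. Ccl21a, the other CCR7 ligand, was seen in 82.5% of SAH and 75.9% of sham reticular cells, against 59.0% of SAH and 33.0% of sham endothelial cells, some of which make it in high endothelial venules. C4b, a complement component, was seen in 92.7% of SAH and 87.1% of sham reticular cells, against 13.3% and 4.79% of SAH and sham endothelial cells. Slc7a11, the cystine transporter, was seen in 10.6% of SAH and 9.86% of sham cells, against 1.29% and 1.00% in SAH and sham endothelium. Thbs4, an extracellular thrombospondin, was seen in 4.72% of SAH and 3.49% of sham cells, against 0.313% and 0.314%. The markers were thus above the endothelial share in both libraries, but Slc7a11 and Thbs4 marked a minority. Cxcl13, a marker of B-zone stroma, was seen in 62.9% of SAH and 45.8% of sham reticular cells, against 10.7% of SAH and 3.89% of sham endothelial cells. Rgs5, best known from pericytes, was seen in 53.1% of SAH and 52.4% of sham reticular cells, against 7.67% and 5.52% of endothelial cells. Lepr, of perivascular stroma, was seen in 53.8% and 51.0%, against 7.12% and 6.09%. Of other T-zone genes, Il7 was seen in 19.7% of SAH and 26.4% of sham reticular cells and Pdpn in 11.3% and 10.9%. The cells therefore do not carry a T-zone profile alone, and they are called Ccl19-positive reticular cells throughout.

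The Ccl19-positive cells were divided by their level of Ccl21a. A limit of 20 Ccl21a UMIs per 10000, set after the values had been seen, put 546 SAH cells (56.4% [53.2, 59.6]) and 398 sham cells (60.0% [56.2, 63.8]) on the rich side. Near the limit, between 10 and 40 UMIs per 10000, lay 144 SAH cells (14.9%) and 95 sham cells (14.3%). Fewer cells lay just at the limit than on either side in the SAH library, where 11.7% of cells had 4 to 8 UMIs per 10000, 5.79% had 16 to 32 and 14.3% had 256 to 512. In the sham library the limit did not lie at such a low point. There 15.8% of cells had less than 1 UMI per 10000, 5.13% had 4 to 8, 5.28% had 8 to 16, 8.14% had 16 to 32 and 15.5% had 256 to 512. Ccl21a-rich cells carried a median of 15 Ccl19 UMIs in the SAH and 11 in the sham library, and Ccl21a-poor cells 7 in the SAH and 5 in the sham library, at median depths of 7138 and 5787 UMIs in the rich cells and 6460.5 and 5004 UMIs in the poor cells of the SAH and the sham library. On the rich side, 80 SAH cells (8.26% of the Ccl19-positive cells) and 61 sham cells (9.20%) had at least 3 Slc7a11 UMIs, with a median of 52 Ccl19 UMIs in the SAH and 47 in the sham library. Their depth was also larger, at medians of 9281.5 UMIs in the SAH and 8005 UMIs in the sham library.

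**Figure D1:**
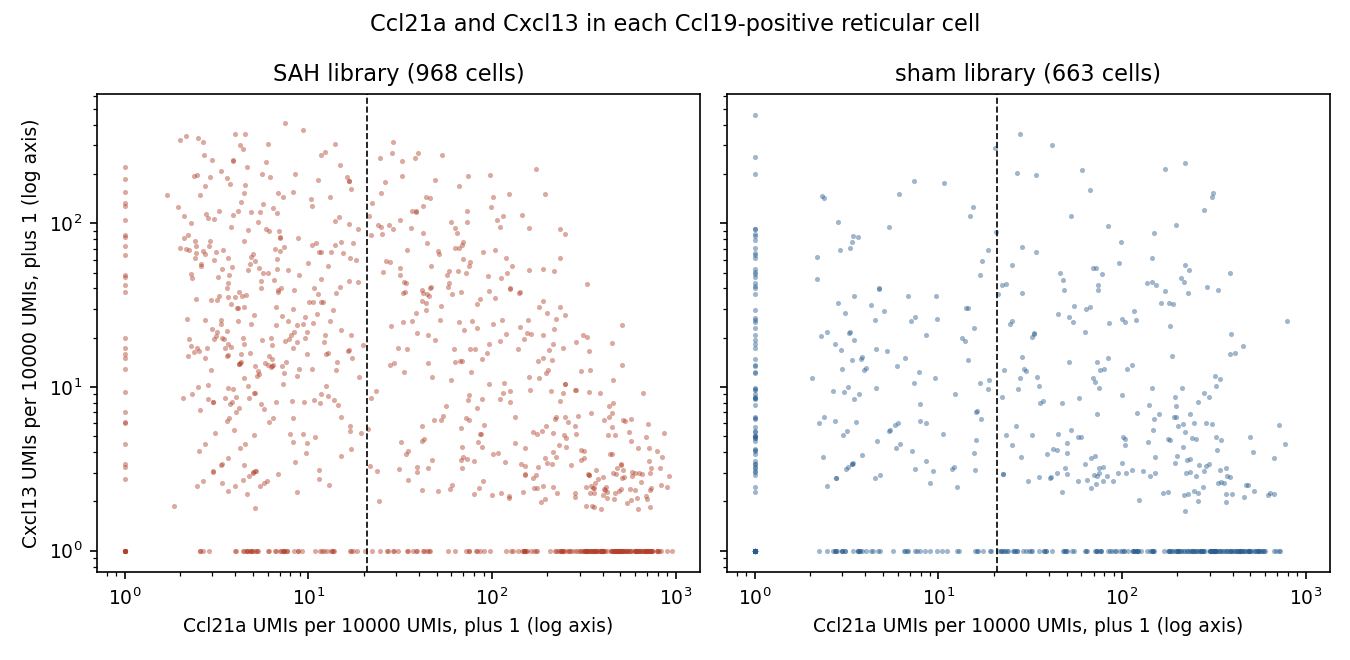
Each point is 1 Ccl19-positive reticular cell, SAH cells in the left panel and sham cells in the right, with Ccl21a on the x axis and Cxcl13 on the y axis, both as UMIs per 10000 on a log scale with 1 added. The dashed line is the limit of 20 Ccl21a UMIs per 10000, with 546 of 968 SAH cells and 398 of 663 sham cells to its right.

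The genes that led the Ccl21a-rich cells over the poor cells in each library were, after Ccl21a itself, Slc7a11, Prkcb, Stmn2, Igfbp2, Fmod, Ly6h and Thbs4. Slc7a11 stood at 193 CPM in rich and 9.63 CPM in poor SAH cells, and at 219 CPM in rich and 9.16 CPM in poor sham cells. Stmn2, a microtubule regulator known from neurons, stood at 363 CPM in rich and 8.60 CPM in poor SAH cells, and at 452 CPM and 32.4 CPM in rich and poor sham cells. Thbs4 had 67.3 CPM in rich and 0.688 CPM in poor SAH cells, and 65.5 CPM and 5.64 CPM in rich and poor sham cells. The same order held for Prkcb, a protein kinase C, for Fmod, the collagen-binding fibromodulin, and for Tagln, an actin-binding protein of contractile cells. Tagln had 538 CPM in rich and 93.5 CPM in poor SAH cells, and 992 CPM and 108 CPM in rich and poor sham cells. Grem1, a secreted BMP antagonist of T-zone reticular cells, had 270.2 CPM in rich and 40.6 CPM in poor SAH cells, and 270.1 CPM and 52.1 CPM in the sham cells. Ltb, the lymphotoxin beta chain, was low but had the same order, with 88.4 CPM in rich and 13.1 CPM in poor SAH cells, and 57.1 CPM and 4.93 CPM in rich and poor sham cells.

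The Ccl21a-poor cells were led by Ptn, Stc1, Inmt, Scara5, Cd34 and Lum among others. Inmt, a methyltransferase, had 1467 CPM in poor and 497 CPM in rich SAH cells, and 1352 CPM and 359 CPM in poor and rich sham cells. Ptn, the growth factor pleiotrophin, had 473 CPM in poor and 99.6 CPM in rich SAH cells, and 1059 CPM and 200.1 CPM in poor and rich sham cells. Lum, the collagen-binding lumican, had 738 CPM and 269 CPM in poor and rich SAH cells, and 1552 CPM and 522 CPM in poor and rich sham cells. Scara5, a ferritin receptor, Cd34, a surface sialomucin of adventitial fibroblasts, and Rspo3, a WNT agonist, also stood higher in the poor cells. Cxcl13 was higher there too, with 6160.4 CPM in poor and 2420.2 CPM in rich SAH cells, and 2986 CPM and 1869 CPM in poor and rich sham cells. Lepr, the leptin receptor of perivascular stroma, had 652 CPM in poor and 363 CPM in rich SAH cells, and 658 CPM and 337 CPM in the sham cells.

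Set against 132 SAH and 254 sham fibroblasts without a Ccl19 UMI (median depths 3191 and 3197 UMIs), the Ccl19-positive cells were led by Slc7a11, Stmn2, Bst1, Ccl21a and Grem1. This is a description, since the cells were picked on Ccl19. Bst1, the ectoenzyme CD157 known from reticular stroma, stood at 215 CPM in SAH and 226 CPM in sham Ccl19-positive cells, 33.6 times its level in Ccl19-negative fibroblasts of the SAH and 25.0 times in those of the sham library. For Ccl21a the ratios were 26.1 in the SAH and 23.5 in the sham library, and for Grem1 20.4 and 13.0. Slc7a11 had no UMI in the Ccl19-negative SAH fibroblasts. Tnfsf11, the cytokine RANKL of marginal reticular cells, had ratios of 9.42 in the SAH and 13.4 in the sham library, and Rgs5, a G-protein regulator best known from pericytes, 6.89 and 9.23. The ratios of Tnfsf11 and Rgs5 are partly fixed by the choice. Ccl19-negative cells that also met the definition of mural cells, on Rgs5, or of marginal reticular cells, on Tnfsf11, were left out. Spib, an ETS-family transcription factor best known from B cells, also led the list, with 6.48 in the SAH and 9.28 in the sham library. The other leading genes were Ly6k, Ly6h, Serpina3g, Serpinb6b, Dsc3 and the annotated gene CR974586.5.

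Within the Ccl19-positive cells the genes whose UMIs followed Ccl19 most closely, over cells thinned to 2000 UMIs, were Ccl21a (Spearman rho 0.430 over 953 SAH and 0.443 over 659 sham cells), Clu (0.416 in SAH and 0.393 in sham cells), Mfge8 (0.364 and 0.375), Stmn2 (0.316 and 0.334) and Gm2564 (0.300 and 0.344). Clu, the chaperone clusterin, and Mfge8, a bridging protein for dying cells, are also known from follicular stroma. Cells of a library share its free RNA and handling, so these are descriptions.

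Ccl19 was counted at ENSMUSG00000071005 (chr4:42754525-42756577, minus strand, protein-coding, GENCODE M21 on GRCm38), and Ccl21a almost wholly at ENSMUSG00000094686 (chr4:42772860-42773993, minus strand). Near-identical copies of both genes exist, so reads of Ccl21a, Ccl21b and Ccl21c, of C4a and C4b and of Saa1 and Saa2 cannot be parted with certainty.

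Between the libraries, the genes of T-zone reticular identity were close to level. Of 17 T-zone reticular identity genes measured, 0 were at least 1.5-fold higher after SAH and 1 at least 1.5-fold lower, with a median log2 fold of -0.07. The list includes Ccl19 and Pdgfrb, which were used to choose the cells. Over all 12413 genes with at least 10 UMIs in both libraries together, 11.7% were at least 1.5-fold higher and 9.69% at least 1.5-fold lower, with a median log2 fold of -0.02. The counts of each gene list below are to be read beside these shares. Ccl21a had 16214 CPM in the SAH and 13600.4 CPM in the sham library (1.19-fold [1.18, 1.20]). C4b had 1655 CPM in the SAH and 1239 CPM in the sham library (1.34-fold [1.29, 1.38]). Slc7a11 had 116 CPM in the SAH and 143 CPM in the sham library (0.810-fold [0.727, 0.904]), and Thbs4 had 39.4 CPM in the SAH and 43.8 CPM in the sham library (0.898-fold [0.739, 1.09]), an interval that spans equality. The lower gene was Ch25h, the enzyme that makes the B-cell guidance cue precursor 25-hydroxycholesterol, at 7.36 CPM in the SAH and 16.8 CPM in the sham library (0.437-fold [0.297, 0.640]). Ltbr, the lymphotoxin receptor these cells need to mature, had 51.9 CPM in the SAH and 37.7 CPM in the sham library (1.38-fold [1.13, 1.68]).

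Among the 2905 genes that reached at least 50 CPM in one of the libraries, 177 (6.09%) were at least 1.5-fold higher and 210 (7.23%) at least 1.5-fold lower in the SAH cells. With ribosomal protein and mitochondrial genes left out of the totals, which also raised the genes that reached 50 CPM to 3686, 256 genes were higher and 203 lower. With median-of-ratios scaling, which left 2911 genes, 205 were higher and 171 lower.

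**Figure D2:**
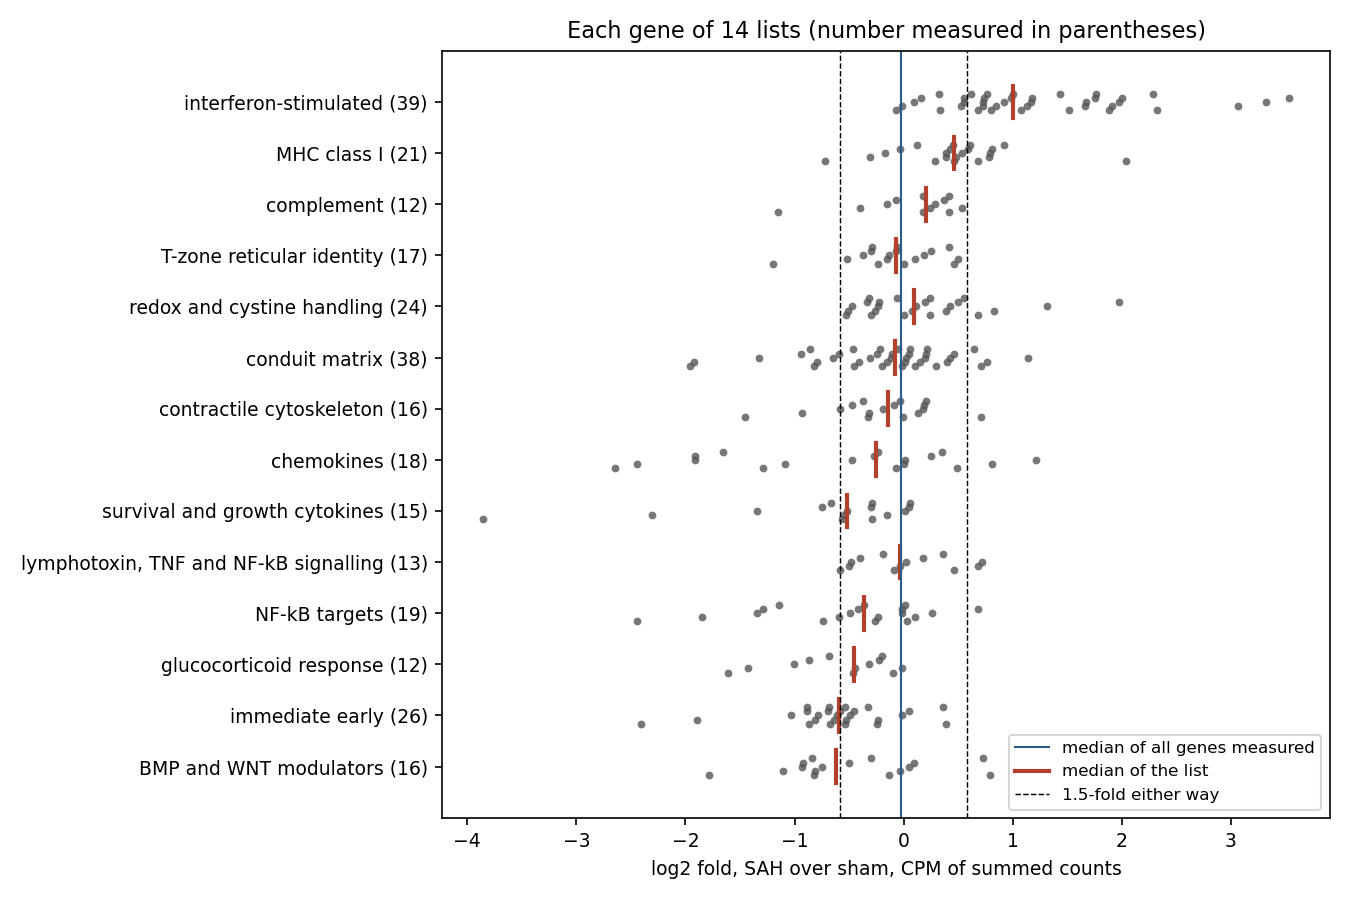
Median log2 fold (SAH over sham) of the measured genes of 14 gene lists in Ccl19-positive reticular cells on the x axis, with a point for each gene and the lists down the y axis. Among the lists plotted, interferon-stimulated genes have the highest median (1.00) and BMP and WNT modulators the lowest (-0.62), and the median over all genes measured is -0.02.

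Interferon-stimulated genes were higher after SAH. Of 39 measured genes of the list, which holds 40, 30 were at least 1.5-fold higher and 0 at least 1.5-fold lower, with a median log2 fold of 1.00 and a summed level of 9938 CPM in SAH and 4516 CPM in sham cells. Irf7, the transcription factor that amplifies type I interferon, had 119 CPM in the SAH and 14.3 CPM in the sham library (8.37-fold [6.38, 11.2]). Ifi27l2a, an interferon-induced membrane protein, had 1474 CPM in the SAH and 147 CPM in the sham library (10.0-fold [9.20, 10.9]). Isg15, the ubiquitin-like modifier, had 178 CPM in the SAH and 48.2 CPM in the sham library (3.69-fold [3.16, 4.32]). Oas1a, the antiviral 2′-5′ oligoadenylate synthetase, was scarce, with 123 UMIs in SAH and 6 in sham cells (11.6-fold [5.18, 32.2]). Ifitm3, a membrane restriction factor, had 5163 CPM in the SAH and 2580.5 CPM in the sham library (2.00-fold [1.96, 2.05]), and Bst2, the virion tether tetherin, 555 CPM in the SAH and 263 CPM in the sham library (2.11-fold [1.97, 2.26]). Stat2, a transcription factor that carries the type I interferon signal, stood at 2.19-fold. Irf1, which responds strongly to interferon gamma, was near level (0.992-fold), and so was Cxcl10, a ligand of CXCR3, at 286 CPM in the SAH and 300.0 CPM in the sham library (0.952-fold [0.885, 1.02]).

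Irf7, Ifi27l2a and Isg15 were also higher after SAH in both kinds of endothelium and in Ccl19-negative fibroblasts. In the thinned cells Irf7 was seen in 18.7% of SAH and 2.58% of sham Ccl19-positive cells, against 52.5% of SAH and 18.6% of sham blood endothelial cells. Isg15 was seen in 18.4% of SAH and 6.83% of sham Ccl19-positive cells, against 45.4% of SAH and 26.7% of sham endothelial cells. For both genes the reticular shares lie below the endothelial ones, and the endothelium can express them itself. Ifi27l2a was seen in 56.2% of SAH and 15.5% of sham Ccl19-positive cells, above the 31.5% of SAH and 11.2% of sham endothelial cells. The part of free RNA in the folds was not tested. The fold of Irf7 was 4.72 in blood endothelial, 5.68 in lymphatic endothelial and 5.38 in Ccl19-negative fibroblasts. Ifi27l2a had 10.0-fold in the Ccl19-positive cells and 3.51, 2.93 and 2.54 in the same other populations, and Isg15 had 3.69-fold in the Ccl19-positive cells and 2.48, 2.06 and 2.16 in the others. In T cells, B cells and Pi16-positive fibroblasts Isg15 was at 0.464-fold, 1.34-fold and 1.23-fold, but these folds rest on few cells. There were 18 SAH and 64 sham T cells, with 23.8 and 51.3 CPM of Isg15. There were 39 SAH and 94 sham B cells, with 39.7 and 29.6 CPM, and 25 SAH and 49 sham Pi16-positive fibroblasts, with 80.0 and 65.3 CPM. The larger folds were not limited to the Ccl19-positive cells. In marginal reticular cells, only 16 in each library, Ifi27l2a had 368 CPM in SAH and 11.7 CPM in sham cells (31.3-fold). Isg15 had 52.5 CPM in SAH and 11.7 CPM in sham marginal reticular cells (4.47-fold). These differences between populations were not tested.

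Interferon-stimulated promoters carry a repeated GAAA element that interferon-activated transcription factors bind. The letters GAAA, any 2 bases, GAAA were searched on both strands, with overlapping matches allowed, in the 250 bases before each gene's start in RefSeq (GRCm38.p6). They occurred before 14 of 29 interferon-stimulated genes with a window (48.3%) and before 11 of 22 of those at least 1.5-fold higher after SAH, against 936 of all 27025 genes with a window (3.46%). Of MHC class I genes 3 of 19 (15.8%) held them, of immediate early genes 1 of 21 (4.76%) and of NF-kB targets 0 of 16. A match is a description and not a bound site. The 250 bases before the start of Isg15 (chr4:156200819-156201068, minus strand), of Oas1a (chr5:120907526-120907775, minus strand) and of Irf7 (chr7:141266425-141266674, minus strand) are shown 5′ to 3′ because these genes are among the higher ones and differ in the element, which is in capitals.
Isg15: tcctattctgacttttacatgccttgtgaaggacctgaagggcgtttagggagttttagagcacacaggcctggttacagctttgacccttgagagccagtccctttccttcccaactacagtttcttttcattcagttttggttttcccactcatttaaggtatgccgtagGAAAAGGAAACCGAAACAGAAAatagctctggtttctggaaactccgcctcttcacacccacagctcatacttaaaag
Oas1a: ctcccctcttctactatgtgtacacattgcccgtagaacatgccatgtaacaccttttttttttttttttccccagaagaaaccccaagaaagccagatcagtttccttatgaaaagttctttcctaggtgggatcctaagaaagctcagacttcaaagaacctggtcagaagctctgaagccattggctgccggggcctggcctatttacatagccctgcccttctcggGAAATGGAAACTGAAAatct
Irf7: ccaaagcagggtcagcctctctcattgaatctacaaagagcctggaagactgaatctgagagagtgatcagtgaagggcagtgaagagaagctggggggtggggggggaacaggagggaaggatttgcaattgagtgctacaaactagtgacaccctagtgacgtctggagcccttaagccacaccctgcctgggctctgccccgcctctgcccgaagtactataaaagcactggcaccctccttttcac
Isg15 held 3 overlapping matches in a run of 22 bases, and Oas1a 2 overlapping matches in 16 bases close to its start. The Irf7 window held 0 matches, which says only that these letters are not in these 250 bases.

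MHC class I genes, which present peptides of the cell's own proteins to CD8 T cells, were on the higher side. The 21 measured genes had a median log2 fold of 0.46. They included 8 at least 1.5-fold higher and 1 lower, against 11.7% and 9.69% of all genes measured. H2-T23, the non-classical molecule Qa-1 that is read by natural killer cells, had 616 CPM in the SAH and 149.9 CPM in the sham library (4.11-fold [3.77, 4.48]). B2m, the light chain, had 2347 CPM in the SAH and 1719.9 CPM in the sham library (1.36-fold [1.33, 1.40]). Tap1, the peptide transporter, and Psmb8, an immunoproteasome subunit, were 1.72-fold and 1.73-fold. The classical heavy chains went opposite ways, H2-D1 at 1.39-fold and H2-K1 at 0.810-fold, and H2-M3 was at 0.606-fold. Class I heavy chains are close copies of each other, so reads may be shared among them. MHC class II genes were scarce, with 0 members past 1.5-fold on the higher and 0 on the lower side of 7.

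Acute phase genes included the largest differences. Saa3, serum amyloid A3 made by stroma and epithelium in inflammation (ENSMUSG00000040026, chr7:46711998-46715700, minus strand), had 31334 UMIs in SAH and 884 UMIs in sham cells, that is 4519 CPM in the SAH and 225 CPM in the sham library (20.1-fold [18.8, 21.5]). The 10 cells with most of its UMIs held 17.0% of them in the SAH library and 65.0% in the sham library. The cell with most of them held 2.22% in the SAH library and 14.5% in the sham library, and after thinning it was seen in 41.0% of SAH and 6.53% of sham cells, against 8.68% of SAH and 0.432% of sham endothelial cells. Saa3 was higher in Ccl21a-poor cells, with 6951 CPM in SAH and 456 CPM in sham cells, than in Ccl21a-rich cells, with 2762 CPM in SAH and 94.7 CPM in sham cells. Saa1, a close copy, was scarce, with 361 and 5 UMIs in SAH and sham cells (40.8-fold [17.3, 127]). Lcn2, the iron-siderophore trap lipocalin 2, had 275 CPM in the SAH and 14.5 CPM in the sham library (19.0-fold [14.6, 25.1]), and Cp, the copper ferroxidase ceruloplasmin, 654 CPM in the SAH and 409.9 CPM in the sham library (1.60-fold [1.51, 1.69]). Lymphatic endothelial cells carried 524 CPM of Lcn2 in the SAH and 224 CPM in the sham library, and the part of free RNA was not tested. After thinning it was seen in 18.9% of SAH and 1.82% of sham Ccl19-positive cells, against 10.6% of SAH and 1.73% of sham endothelial cells. Ptx3 and Orm1 were on the lower side and under 10 CPM in both libraries, and Steap4, a metalloreductase, was at 0.852-fold. In all, 5 acute phase genes passed 1.5-fold on the higher and 2 on the lower side, of 8 measured. The fold of Saa3 was 46.1 in blood endothelial cells (215 CPM in SAH and 4.67 CPM in sham cells). It was 20.3 in lymphatic endothelial cells (134 and 6.61 CPM) and 27.8 in Ccl19-negative fibroblasts (1194 and 43.0 CPM). These folds were as large as in the Ccl19-positive cells but at lower levels, and the part of free RNA in them was not tested. Other populations had higher levels. In marginal reticular cells, only 16 in each library, Saa3 had 7660 CPM and Lcn2 653 CPM in SAH cells, and neither had a UMI in sham cells. Saa1 had 192 CPM in SAH and 1.13 CPM in sham Ccl19-negative fibroblasts, against 52.1 CPM in SAH and 1.27 CPM in sham Ccl19-positive cells.

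**Figure D3:**
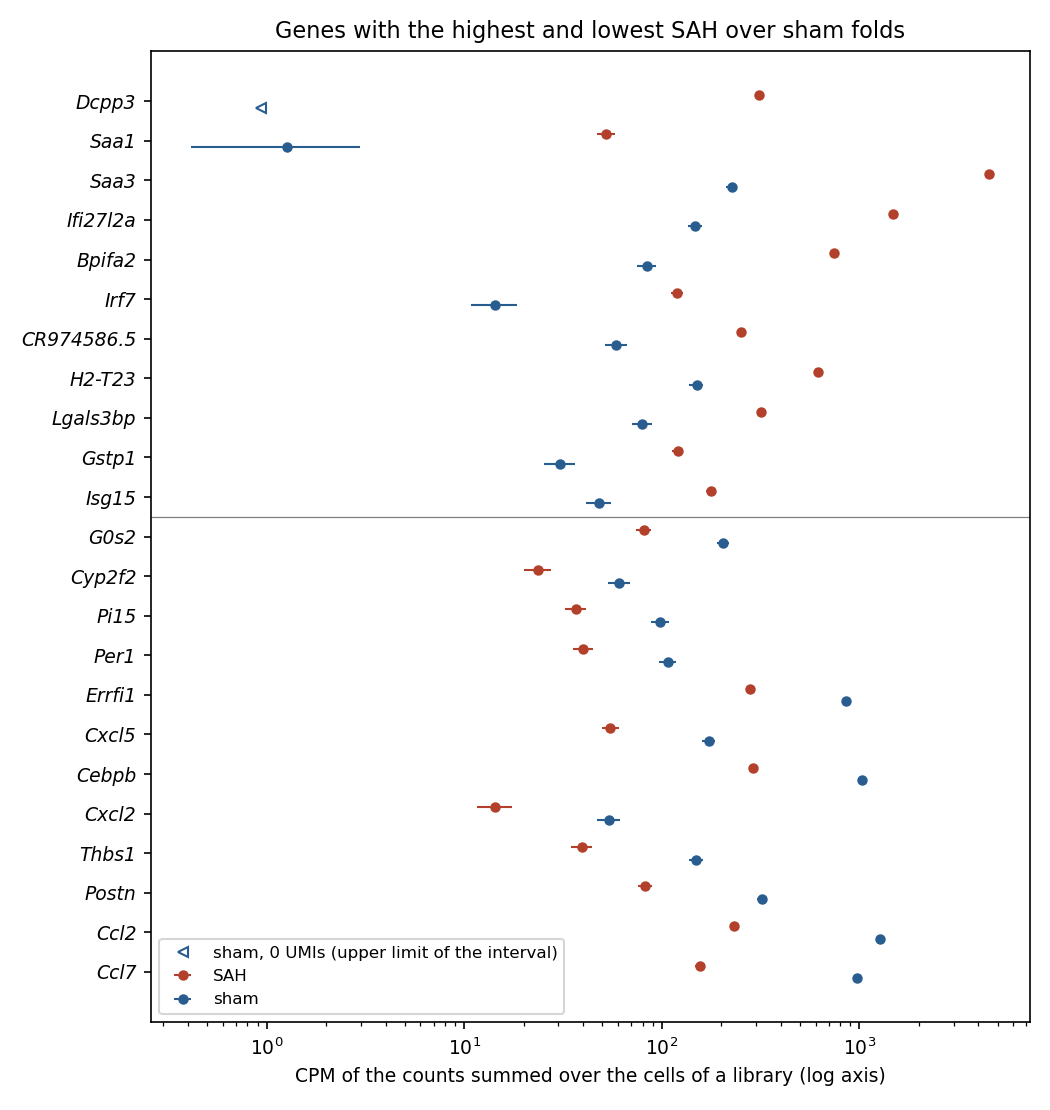
CPM on a log axis of 23 genes with the highest and lowest folds in Ccl19-positive reticular cells, SAH and sham points for each gene and horizontal bars for exact Poisson 95% intervals (for the 0 UMIs of Dcpp3 in sham cells, the upper limit). Saa3 lies at 4519 CPM in SAH and 225 CPM in sham cells, and Ccl7 at 156 CPM in SAH and 973 CPM in sham cells.

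The chemokines split, with those for monocytes and neutrophils lower after SAH and Cxcl13 and Cxcl9 higher. Among 18 measured, 2 passed 1.5-fold on the higher and 7 on the lower side, against 11.7% and 9.69% of all genes measured. Their median log2 fold was -0.25. The median was -0.63 without the cells that carried Rgs5 or Ptprc UMIs. Ccl2, the main monocyte attractant, had 233 CPM in the SAH and 1265 CPM in the sham library (0.184-fold [0.174, 0.195]), and Ccl7, its neighbour on chromosome 11 that shares the receptor CCR2, 156 CPM in the SAH and 973 CPM in the sham library (0.160-fold [0.150, 0.171]). After thinning Ccl2 was seen in 12.1% of SAH and 27.5% of sham cells, against 1.25% of SAH and 2.12% of sham endothelial cells. The neutrophil attractants Cxcl1, Cxcl2 and Cxcl5, ligands of CXCR2, had 0.409-fold, 0.265-fold and 0.318-fold. Cxcl1 had 573 CPM in the SAH and 1401 CPM in the sham library. Ccl11, the eosinophil attractant eotaxin, had 373 CPM in the SAH and 792 CPM in the sham library (0.471-fold [0.446, 0.496]).

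Cxcl13 had 3989 CPM in the SAH and 2273 CPM in the sham library (1.75-fold [1.71, 1.80]), with at least 3 UMIs after thinning in 42.1% of SAH and 24.4% of sham cells. Its fold was 2.06 in the Ccl21a-poor and 1.29 in the Ccl21a-rich cells, a difference that was not tested. Cxcl9, a CXCR3 ligand induced by interferon gamma, had 376 CPM in the SAH and 162 CPM in the sham library (2.32-fold [2.13, 2.53]). After thinning Cxcl9 was seen in 16.7% of SAH and 6.83% of sham cells, close to the 15.5% of SAH and 6.73% of sham blood endothelial cells. The part of free RNA in its fold was not tested. Cxcl12, the retention signal for CXCR4-bearing lymphocytes, had 7777 CPM in the SAH and 9146 CPM in the sham library (0.850-fold [0.839, 0.862]).

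The survival and growth cytokines were level or lower. Among 15 measured, 0 passed 1.5-fold on the higher and 5 on the lower side, against 11.7% and 9.69% of all genes measured. Their median log2 fold was -0.52. Il7, the survival factor of naive T cells, had 123 CPM in the SAH and 151 CPM in the sham library (0.815-fold [0.733, 0.907]). Tnfsf13b, the B-cell survival factor BAFF, had 287 CPM in the SAH and 412 CPM in the sham library (0.697-fold [0.652, 0.744]). Both were lower in the SAH cells by less than 1.5-fold. Vegfa, the vascular growth factor, had 321 CPM in the SAH and 474 CPM in the sham library (0.678-fold [0.637, 0.721]), and Igf1, insulin-like growth factor 1, 0.629-fold. The scarce inflammatory members were further down. Csf3, which drives granulocyte output, had 20 UMIs in SAH and 164 in sham cells (0.0690-fold [0.0411, 0.110]), Lif 0.202-fold and Il6 0.393-fold. Tnfsf11 had 60.1 CPM in the SAH and 137 CPM in the sham library (0.440-fold [0.386, 0.501]).

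Lymphotoxin, TNF and NF-kB pathway genes had no common direction. Of 13 measured, 2 were at least 1.5-fold higher, against 11.7% of all genes measured. The 2 were Nfkb2, the p100 precursor of the lymphotoxin arm, at 1.64-fold and Traf2, a receptor adaptor, at 1.61-fold. The count on the lower side was 0, with Nfkb1, the p105 precursor of the classical arm, close to the limit at 0.667-fold. NF-kB target genes were on the lower side, with 1 of 19 at least 1.5-fold higher, 7 lower and a median log2 fold of -0.36. The median was -0.046 without the cells that carried Rgs5 or Ptprc UMIs. Cebpb, a transcription factor of acute inflammation, had 288 CPM in the SAH and 1034 CPM in the sham library (0.278-fold [0.264, 0.294]), and was seen after thinning in 39.8% of SAH and 66.8% of sham cells, against 11.4% of SAH and 21.2% of sham endothelial cells. Nfkbia, the inhibitor that NF-kB itself induces, had 729 CPM in the SAH and 1214 CPM in the sham library (0.600-fold [0.577, 0.625]), and Ptgs2, the prostaglandin synthase COX-2, 54.7 CPM in the SAH and 121 CPM in the sham library (0.452-fold [0.394, 0.519]). The higher gene was Nfkbie, another inhibitor (1.61-fold). Vcam1, an integrin ligand of reticular cells, had 693 CPM in the SAH and 646 CPM in the sham library (1.07-fold [1.02, 1.13]).

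Immediate early genes, which respond quickly to stimuli including tissue dissociation, had more members on the lower side after SAH. Among 26 measured, 0 passed 1.5-fold on the higher and 13 on the lower side, with a median log2 fold of -0.60. Of all genes measured, 11.7% passed on the higher and 9.69% on the lower side. Egr1 had 1362 CPM in the SAH and 2192 CPM in the sham library (0.621-fold [0.603, 0.640]) and Fos 2552 CPM in the SAH and 3204 CPM in the sham library (0.796-fold [0.778, 0.815]), while Jun was at 1.03-fold and Atf3 was slightly higher at 1.31-fold. Glucocorticoid-responsive genes were also on the lower side, with 0 higher and 5 lower of 12. Per1, a clock gene that glucocorticoids induce, had 39.9 CPM in the SAH and 107 CPM in the sham library (0.372-fold [0.319, 0.434]), and Errfi1, an inhibitor of the EGF receptor, 279 CPM in the SAH and 854 CPM in the sham library (0.327-fold [0.309, 0.346]). Fkbp5, the chaperone used as a marker of glucocorticoid exposure, was at 0.991-fold and Tsc22d3, the mediator GILZ, at 0.497-fold. The chemokines Ccl2, Ccl7, Cxcl1 and Cxcl2, the cytokines Csf3, Lif and Il6, and Cebpb were lower beside the immediate early genes, and the part of handling in these values was not tested. Of 12 heat shock genes measured, 0 were at least 1.5-fold higher and 2 lower, to be read beside the same shares of all genes.

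Matrix genes of the conduits had both higher and lower members. Their median log2 fold was -0.08. Among 38 measured, 4 passed 1.5-fold on the higher and 9 on the lower side, against 11.7% and 9.69% of all genes measured. The count of 4 is thus near the share of all genes. The higher ones were the type IV collagens of basement membranes, with Col4a1 at 582 CPM in the SAH and 372 CPM in the sham library (1.56-fold [1.47, 1.66]) and Col4a2 at 395 CPM in the SAH and 179.7 CPM in the sham library (2.20-fold [2.02, 2.39]), the laminin chain Lamb2 at 1.63-fold and Mfap4, an elastic fibre protein, at 1.70-fold. Other basement membrane genes were not higher, such as the laminin chain Lamc1 at 0.752-fold and the perlecan gene Hspg2 at 0.727-fold. Col1a1, type I collagen, had 916 CPM in the SAH and 1615 CPM in the sham library (0.567-fold [0.547, 0.587]), and it is 1 of the genes used to choose the cells. Fn1, fibronectin, had 238 CPM in the SAH and 596 CPM in the sham library (0.399-fold [0.375, 0.426]), and Lum 465 CPM in the SAH and 894 CPM in the sham library (0.520-fold [0.496, 0.546]). Postn, the matricellular periostin, had 82.5 CPM in the SAH and 321 CPM in the sham library (0.257-fold [0.232, 0.284]), and Thbs1, thrombospondin 1, 39.4 CPM in the SAH and 149 CPM in the sham library (0.264-fold [0.228, 0.306]). Dcn, decorin, also used in the choice, was at 1.11-fold. The fold of Fn1 was 0.178 in Ccl21a-poor and 0.507 in Ccl21a-rich cells, a difference that was not tested. Contractile genes counted 1 of 16 at least 1.5-fold higher, the calponin Cnn2, and 3 lower, against 11.7% and 9.69% of all genes measured. Tagln had 352 CPM in the SAH and 672 CPM in the sham library (0.523-fold [0.495, 0.553]). Acta2, smooth muscle actin, had 129 CPM in the SAH and 353 CPM in the sham library (0.365-fold [0.335, 0.397]), but mural cells carried 5398 CPM in the SAH and 6085 CPM in the sham library, and the part of free RNA was not tested. Pdpn, podoplanin, a surface protein also used in the enrichment of the cells, had 66.6 CPM in the SAH and 58.6 CPM in the sham library (1.14-fold [0.968, 1.34]).

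BMP and WNT modulators had a median log2 fold of -0.62, which was -0.36 under a stricter cell filter, with 2 members past 1.5-fold on the higher and 8 on the lower side of 16. Id1, Id2 and Id3, inhibitors of differentiation that BMP signals induce, were at 0.566-fold, 0.560-fold and 0.570-fold. Sfrp2, a secreted WNT antagonist, was at 0.525-fold, while Grem1 was near level at 174 CPM in the SAH and 191 CPM in the sham library (0.910-fold [0.830, 0.998]). Dkk3 and Bmp2 were the higher ones, at 1.73-fold and 1.65-fold.

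Complement was level to slightly higher. Among 12 measured, 0 passed 1.5-fold on the higher and 1 on the lower side, with a median log2 fold of 0.21. C3, the central component, had 8157 CPM in the SAH and 6919 CPM in the sham library (1.18-fold [1.16, 1.20]), and Cfi, the protease that inactivates it, 0.449-fold. Genes of redox control had a median log2 fold of 0.10. Of 24 measured, 4 passed 1.5-fold on the higher and 0 on the lower side, against 11.7% and 9.69% of all genes measured. The higher ones were the glutathione peroxidases Gpx3, at 706 CPM in the SAH and 284 CPM in the sham library (2.49-fold [2.33, 2.66]), and Gpx4 (1.61-fold), the superoxide dismutase Sod1 (1.78-fold) and the glutathione transferase Gstp1 (3.93-fold). Gstp1 was also higher in blood endothelial cells (4.08-fold), lymphatic endothelial cells (3.85-fold) and Ccl19-negative fibroblasts (3.24-fold). Gstp1 has close copies in the genome, so its reads may be shared.

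Other genes with the largest folds were CR974586.5, at 253 CPM in the SAH and 58.9 CPM in the sham library (4.29-fold [3.74, 4.94]), and Lgals3bp, a secreted glycoprotein induced by interferon, at 317 CPM in the SAH and 79.5 CPM in the sham library (3.99-fold [3.54, 4.51]). Apod, the lipocalin apolipoprotein D, had 8.32-fold [6.67, 10.5] but stood at 3021 CPM in SAH and 489.7 CPM in sham Ccl19-negative fibroblasts. On the lower side were Pi15, a secreted protease inhibitor-like protein, at 0.373-fold, Cyp2f2, a cytochrome P450, at 0.387-fold, G0s2, a lipase inhibitor, at 0.398-fold, and Igfbp5, which binds insulin-like growth factors, at 134 CPM in the SAH and 440.2 CPM in the sham library (0.304-fold [0.281, 0.330]). A few large folds rested on single barcodes. Dcpp3 and Dcpp1, secretory proteins of salivary glands and close copies, had 2157 and 5512 UMIs in the SAH cells and none in the sham cells, with 99.6% and 99.6% of them in 1 cell. The salivary gene Bpifa2 had 84.1% of its 5165 SAH UMIs in 1 cell. Slpi, a protease inhibitor, had 97.5% of its 282 sham UMIs in 1 cell. With these 2 barcodes left out, Dcpp3 had 8 UMIs and Dcpp1 21 UMIs in SAH cells, Bpifa2 821 UMIs in SAH and 330 in sham cells, and Slpi 18 UMIs in SAH and 7 in sham cells.

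The differences between the libraries were compared across the range of Ccl21a and across the other populations. Saa3 was 29.2-fold in Ccl21a-rich and 15.3-fold in Ccl21a-poor cells, Irf7 7.84-fold and 8.75-fold, Ccl2 0.222-fold and 0.127-fold, and Cebpb 0.296-fold and 0.251-fold. In the 80 SAH and 61 sham Ccl21a-rich cells with at least 3 Slc7a11 UMIs, Ccl7 was at 1.23-fold [0.929, 1.63], Ccl2 at 0.771-fold [0.663, 0.896], Errfi1 at 1.57-fold [0.873, 2.95] and Cxcl5 at 3.91-fold [1.14, 20.7]. These stood apart from the folds of 0.160, 0.184, 0.327 and 0.318 over all Ccl19-positive cells, and the differences were not tested. The genes were picked after their values in these cells had been seen. In the same cells Cebpb was at 0.561-fold [0.461, 0.683] and Irf7 at 7.16-fold [3.48, 17.1]. Of 294 list genes with at least 200 UMIs, 244 had the same sign on both sides, which come from the same libraries. Ccl7 and Ccl2 were also lower after SAH in Ccl19-negative fibroblasts, at 0.106-fold and 0.111-fold. In lymphatic endothelial cells they were at 0.199-fold and 0.203-fold. Cebpb was at 0.427-fold in Ccl19-negative fibroblasts, 0.468-fold in blood and 0.478-fold in lymphatic endothelial cells. The part of free RNA in these folds was not tested. In 25 SAH and 49 sham Pi16-positive adventitial fibroblasts Ccl7 went the other way, with 41 UMIs in SAH and 2 UMIs in sham cells. However, 97.6% of the SAH UMIs lay in 1 cell. Ccl2 was at 3.92-fold and Cebpb at 0.674-fold in the same adventitial cells.

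**Figure D4:**
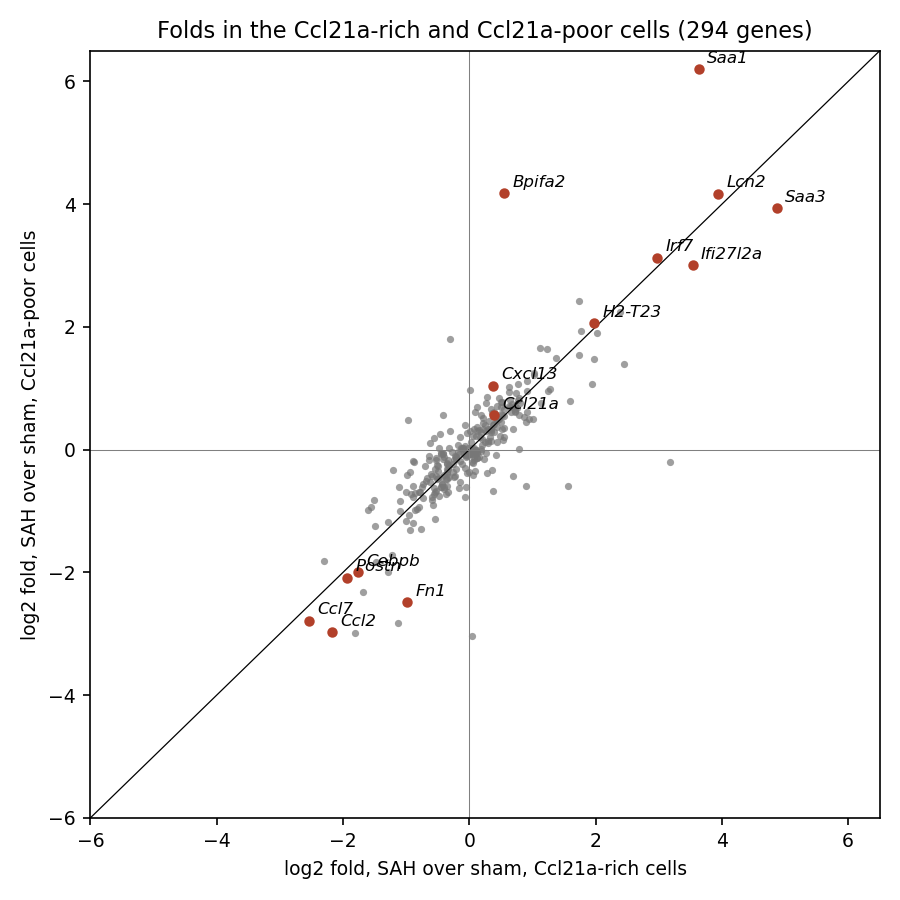
Log2 fold (SAH over sham) of the list genes with at least 200 UMIs, in Ccl21a-rich cells on the x axis and in Ccl21a-poor cells on the y axis, with the line of equal folds. Of 294 genes, 244 have the same sign on both axes.

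**Figure D5:**
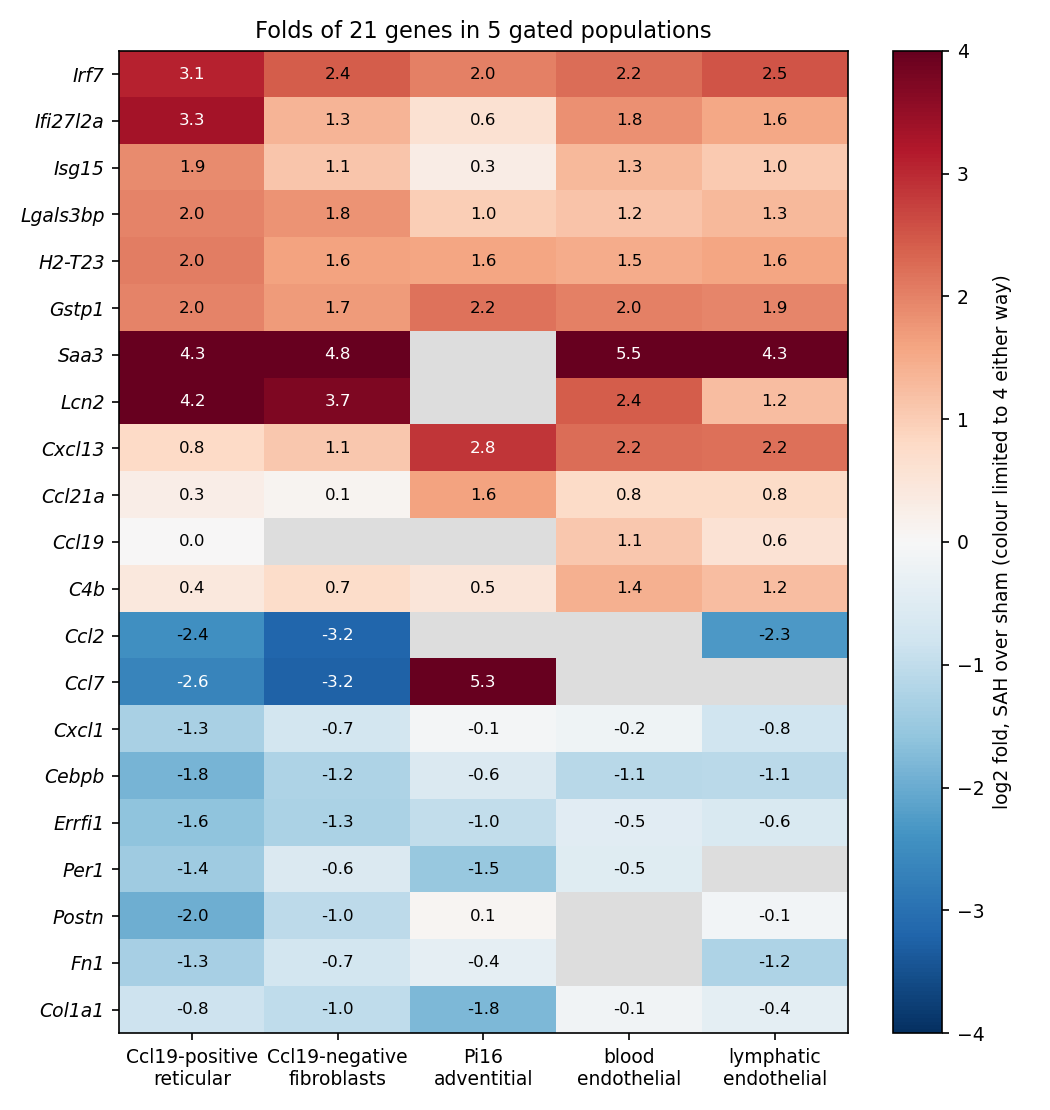
Log2 fold (SAH over sham) of 21 named genes, in rows, in 5 cell populations, in columns from the Ccl19-positive cells on the left. Colour and printed number give the log2 fold, and grey marks genes under 50 CPM in both libraries or at 0 in one. Saa3 is higher after SAH in the Ccl19-positive cells, in Ccl19-negative fibroblasts and in both kinds of endothelium.

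Markers of other cell types in the Ccl19-positive cells are given as summed levels. Of 8 blood endothelial markers, Pecam1 was at 0 by the choice, and the summed level was 362 CPM in SAH and 296 CPM in sham cells, of which Plvap had 226 and 203 CPM. Of 7 measured, 4 were at least 1.5-fold higher in the SAH cells and 0 lower, against 11.7% and 9.69% of all genes measured. Lymphatic endothelial markers summed to 47.9 CPM in SAH and 32.6 CPM in sham cells, with Prox1 at 0 by the choice. Mural markers summed to 2147 CPM in SAH and 2336 CPM in sham cells. Within them Rgs5 had 572 CPM in the SAH and 689 CPM in the sham library and Abcc9, a potassium channel subunit of pericytes, 453 CPM in the SAH and 553 CPM in the sham library, while Myh11 was at 0 by the choice and Cspg4 had 3 and 1 UMIs in SAH and sham cells. B-cell markers summed to 452 CPM in SAH and 603 CPM in sham cells, nearly all of it Ebf1, which stroma also expresses (442 and 594 CPM in SAH and sham cells), and Cd79a had 4.90 and 4.59 CPM. T or NK cell markers summed to 0.144 CPM in SAH and 2.29 CPM in sham cells, and myeloid markers to 19.3 CPM in SAH and 7.14 CPM in sham cells. Salivary epithelial markers summed to 831 CPM in SAH and 152 CPM in sham cells, most of it Bpifa2. The parts of these cell types in the gene differences above were not tested. With the cells that carried Rgs5 or Ptprc UMIs left out, 246 SAH and 161 sham cells remained.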

How the data were processed

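Mandibular lymph node cells were profiled with the Chromium platform, which per the labels tags each cDNA molecule at its 5′ end. The authors deposited an unnormalized matrix of whole-number UMI counts for each library, made with cellranger 5.0.0 per the file headers. Tools listed by the submitters' processing notes are Cell Ranger 5.0, STAR and Seurat 3.0.2, and the build listed is mm10. The annotation release and any use of introns are not given in the sources used here.

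Where several entries carry 1 symbol, their counts were added. The cells and the gene lists were chosen with earlier results of these data known. Counts were summed over the chosen cells of a library, with no doublet removal in the reported values. Genes named between libraries were the 12 highest and 12 lowest folds among those that reached 50 CPM in either library and had the same sign in cells with 3 to 9 and with 10 or more Ccl19 UMIs, without genes of ribosomal proteins, mitochondria, antigen receptors, haemoglobin or the Y chromosome, Xist and predicted genes. Genes over 10 times higher in another population were set apart, and 3 each way are named. A gene among the 12 highest is not reported here. The most abundant, highest and lowest list genes, and other members chosen after their values were seen, are named besides. Lists count genes with at least 10 UMIs over both libraries.

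The other populations were defined by raw UMIs. Blood endothelial cells had at least 3 Pecam1 and no Prox1 UMIs, and lymphatic endothelial cells at least 2 Prox1 and 1 Pecam1 UMIs. Ccl19-negative fibroblasts had no Ccl19, Pecam1, Prox1, Pi16, Myh11 or Ptprc UMI and at least 10 UMIs over Dcn, Col3a1, Col1a1 and Pdgfrb, and adventitial fibroblasts at least 2 Pi16 UMIs and the same stromal sum. Mural cells had at least 3 Rgs5 UMIs, no Ccl19, Pecam1 or Prox1 UMI and at least 1 UMI over the stromal genes. Marginal reticular cells had at least 2 Tnfsf11 and under 3 Ccl19 UMIs, no Pecam1, Prox1, Pi16 or Myh11 UMI and a stromal sum of at least 10. B cells had at least 3 UMIs over Cd79a and Cd79b, and T cells at least 3 over Cd3d, Cd3e and Cd3g, both without Pecam1 or Prox1 UMIs. Cells that met more than 1 definition were left out of these populations. Scrublet was run through scanpy 1.11.5, with Python 3.11.15, numpy 2.4.6, scipy 1.17.1, pandas 2.3.3 and matplotlib 3.10.9. The counting was tested on simulated data.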

Additional observations from a re-analysis of the deposited data

Results flagged for a closer look

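A few named genes stood higher after SAH in one population and lower in the Ccl19-positive reticular cells. Each difference below is the log2 fold in the Ccl19-positive cells minus that in the other population. None was tested, since each group is 1 library, and the intervals cover counting error only. Ccl7 had a fold of 0.160 [0.150, 0.171] in the Ccl19-positive cells and 40.2 [10.4, 343] in Pi16-positive adventitial fibroblasts (328 CPM in 25 SAH cells and 8.16 CPM in 49 sham cells), a difference of -7.97. The adventitial cells held 41 UMIs of it in the SAH and 2 UMIs in the sham library, and 97.6% of those in the SAH library lay in 1 cell. Igfbp5 had 0.304 [0.281, 0.330] in the Ccl19-positive cells and 2.03 [1.88, 2.19] in lymphatic endothelial cells, with UMIs in 209 of 1896 SAH and 133 of 1728 sham cells, a difference of -2.74. Cyp2f2 had 0.387 [0.316, 0.475] in the Ccl19-positive cells and 1.81 [1.00, 3.26] in Ccl19-negative fibroblasts, a difference of -2.22. Tsc22d3 had 0.497 [0.431, 0.573] in the Ccl19-positive cells and 1.92 [1.23, 2.98] in adventitial fibroblasts, a difference of -1.95. Id1 had 0.566 [0.477, 0.671] in the Ccl19-positive cells and 1.59 [1.00, 2.50] in Ccl19-negative fibroblasts, a difference of -1.49. The intervals of Cyp2f2 and Id1 in the Ccl19-negative fibroblasts nearly reach equality.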

How the results depend on the processing

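The ratio of the shares of Ccl19-positive cells (SAH over sham, 1.42) moved to 1.59 with at least 5 and to 1.86 with at least 10 Ccl19 UMIs, both without thinning. It lay between 1.33 and 1.55 under the other cell filters, without predicted doublets, with at least 2 Ccl19 UMIs, with more stromal UMIs and after thinning. Without cells that carried Rgs5 or Ptprc UMIs, 291 genes were at least 1.5-fold higher and 327 lower, against 177 and 210. In Ccl21a-poor cells alone 330 were lower. A limit of 20 CPM gave 369 higher and 413 lower, and a limit of 10 UMIs alone gave 1448 and 1203. List medians of the log2 fold moved for BMP and WNT modulators, to -0.36 under a stricter cell filter and -0.42 without Rgs5 or Ptprc cells, and for redox genes, to -0.13 with at least 10 Ccl19 UMIs and 0.30 without Rgs5 or Ptprc cells. They moved for chemokines to -0.63 without Rgs5 or Ptprc cells, -0.92 in Ccl21a-poor cells and -0.58 with the mean of per-cell CPM, and for NF-kB targets to -0.046 without Rgs5 or Ptprc cells. The log2 fold of Slpi turned to 2.79 without predicted doublets, 1.82 in Ccl21a-rich cells and 0.54 with the 2 barcodes left out that hold most salivary and Slpi UMIs. Of 46 named genes, the fold moved beyond its counting interval for 30 without Rgs5 or Ptprc cells, 30 in Ccl21a-poor cells, 22 in Ccl21a-rich cells and 22 with at least 10 Ccl19 UMIs. The cause of the other moves was not tested. The Ccl21a limits, the Ccl21a-rich and Ccl21a-poor subsets and the 2 barcodes were chosen after seeing the data. Median-of-ratios scaling shifted every log2 fold by 0.033. No paired analysis was possible because each group is 1 library. No replicate could be left out, and doublets of like cells, free RNA and the handling of each pool limit every comparison.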

Other observations

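Genes of follicular dendritic cells and of tolerance belong to no comparison above. Of 5 follicular dendritic cell genes measured, 3 were at least 1.5-fold higher and 0 at least 1.5-fold lower after SAH, with a median log2 fold of 0.68. Of all genes measured, 11.7% were higher and 9.69% lower, with a median of -0.02. Cr2, a complement receptor of follicular dendritic cells and B cells, had 8.08 CPM (56 UMIs) in the SAH and 0.510 CPM (2 UMIs) in the sham Ccl19-positive cells, and Coch, cochlin, had 10.7 CPM (74 UMIs) in the SAH and 2.29 CPM (9 UMIs) in the sham cells. Sox9, a transcription factor also known from follicular stroma, had 7.21 CPM (50 UMIs) in the SAH and 10.2 CPM (40 UMIs) in the sham cells. Tolerance genes had no common direction. Of 12 measured, 3 were at least 1.5-fold higher and 2 lower, with a median log2 fold of 0.10. Tgfb1, the cytokine TGF beta 1, had 19.0 CPM in SAH and 7.39 CPM in sham cells, and Lgals9, the lectin galectin 9, had 91.9 CPM in SAH and 47.4 CPM in sham cells. Tgfb2 was the other way, at 5.62 CPM in SAH and 15.8 CPM in sham cells. Among cell cycle genes, Mki67 had 1.73 CPM (12 UMIs) in the SAH and 1.02 CPM (4 UMIs) in the sham cells.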
